A study of Homo sapiens with 4 samples.

Results

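The heat shock proteins and their DNAJ cochaperones were examined in MDA-MB-468 cells, a human line from a triple-negative breast cancer. The genes were the protein-coding rows named DNAJA, DNAJB, DNAJC, HSPA or HSPB followed by a digit, plus HSPD1, HSPE1, HSPH1, HSP90AA1 and HSP90AB1. DNAJB9, DNAJC3 and HSPA5, which belong to the unfolded protein response of the endoplasmic reticulum, were left out. This gave 69 genes of the 26518 in the table. HSPA14, whose name also matches, was not analysed here.

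The cells carried a lentivirus that expresses an shRNA targeting SASH1, which encodes a signalling adaptor (shSASH1, 2 libraries), or the control virus pGIPZ-CTRL (shControl, 2 libraries). Both kinds of cells were selected with puromycin as stable clones and kept in DMEM with serum, and the labels name no heat shock or other stress. They do not give the number of hairpins or clones behind each group, or say that its libraries were separate cultures. The p-values therefore reflect the scatter of these 4 libraries alone, and that scatter may be technical.

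Molecular chaperones bind unfolded stretches of other proteins and keep them from clumping. HSP70 proteins do so in a cycle of ATP hydrolysis that J-domain proteins of the DNAJ family start and nucleotide exchange factors end. HSP90 takes over clients such as kinases and steroid receptors from HSP70, small HSPs hold aggregating proteins without ATP, and the HSPD1 and HSPE1 chaperonin folds proteins in the mitochondrial matrix. Under heat or other proteotoxic stress the transcription factor HSF1 binds heat shock elements, repeats of the pentamer NGAAN in alternating direction, and raises many of these genes.

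The promoters below are shown because HSPA8 and DNAJA1, both lower in shSASH1, hold a heat shock element of 3 units, and so do DNAJB6, which did not pass, and HSPA6, which was below the level tested. HSPA1A, the classical heat-inducible HSP70 gene, is shown beside them. The sequences run 5′ to 3′ from 250 bases before to 50 bases after the RefSeq transcription start (GRCh38.p14). They cover chr11:123062087-123062386 (minus strand), chr9:33025023-33025322 (plus strand), chr7:157336754-157337053 (plus strand), chr1:161524290-161524589 (plus strand) and chr6:31815293-31815592 (plus strand). Capitals mark every match on either strand to GAANNTTC, a pair of units, or to the 3-unit element, which is GAANNTTC followed on its 3′ side by NNGAA.
HSPA8: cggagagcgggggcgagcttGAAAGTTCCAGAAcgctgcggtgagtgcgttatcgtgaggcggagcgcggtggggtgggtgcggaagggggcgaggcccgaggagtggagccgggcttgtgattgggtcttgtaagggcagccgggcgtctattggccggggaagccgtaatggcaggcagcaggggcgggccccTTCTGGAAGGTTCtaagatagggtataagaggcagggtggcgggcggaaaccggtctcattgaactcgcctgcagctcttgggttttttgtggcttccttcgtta
DNAJA1: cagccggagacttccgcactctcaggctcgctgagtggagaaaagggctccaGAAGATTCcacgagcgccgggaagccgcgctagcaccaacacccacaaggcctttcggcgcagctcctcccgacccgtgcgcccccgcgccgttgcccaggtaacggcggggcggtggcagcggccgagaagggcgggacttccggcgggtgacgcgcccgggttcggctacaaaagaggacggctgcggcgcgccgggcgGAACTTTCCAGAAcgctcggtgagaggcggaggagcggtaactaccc
DNAJB6: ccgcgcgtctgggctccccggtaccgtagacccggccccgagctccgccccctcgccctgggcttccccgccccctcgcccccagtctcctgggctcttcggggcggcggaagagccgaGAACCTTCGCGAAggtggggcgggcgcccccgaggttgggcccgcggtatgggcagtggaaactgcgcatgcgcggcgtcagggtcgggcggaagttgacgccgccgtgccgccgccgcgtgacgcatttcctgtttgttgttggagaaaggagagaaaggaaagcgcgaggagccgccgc
HSPA6: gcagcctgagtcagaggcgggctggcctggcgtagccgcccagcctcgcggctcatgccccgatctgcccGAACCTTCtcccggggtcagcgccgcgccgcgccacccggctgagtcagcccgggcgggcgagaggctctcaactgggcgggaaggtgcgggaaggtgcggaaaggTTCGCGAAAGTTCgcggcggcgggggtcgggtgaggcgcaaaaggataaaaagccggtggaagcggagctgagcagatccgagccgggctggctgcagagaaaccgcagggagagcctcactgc
HSPA1A: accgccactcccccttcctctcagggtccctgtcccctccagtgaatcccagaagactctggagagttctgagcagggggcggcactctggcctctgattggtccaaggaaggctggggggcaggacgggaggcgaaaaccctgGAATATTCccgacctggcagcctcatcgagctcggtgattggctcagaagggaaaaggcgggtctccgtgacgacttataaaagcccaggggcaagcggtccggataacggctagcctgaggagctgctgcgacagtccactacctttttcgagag
The first base of the 3-unit match lay at -230 and again at -55 from the start in HSPA8, at 4 after the start in DNAJA1, at -131 in DNAJB6 and at -74 in HSPA6. Among the 62 genes with a 300-base promoter in RefSeq, 4 held a 3-unit match and 11 a pair. HSP90AA1, HSPH1, HSPA12A, DNAJB12, DNAJC28 and DNAJC30, which were also called lower in shSASH1, held neither. Of all 27305 such promoters, 0.487% held a 3-unit match and 6.87% a pair. A match is a run of letters and was not tested as a binding site. A single RefSeq start was scanned per gene, so matches at other starts of a gene were not counted.

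HSPA8 (ENSG00000109971, chromosome 11, 123057489 to 123063230, hg38, minus strand), the constitutive cytosolic HSP70 also called HSC70, differed most in mean TPM among the 69 genes. It stood at 606 and 494 TPM in the shSASH1 libraries, against 1099 and 1159 TPM in the shControl libraries. Both shSASH1 libraries lay well below both shControl libraries. HSPA8 averaged 550 ± 79.0 TPM in shSASH1 and 1129 ± 41.9 TPM in shControl (SD, n = 2 each), a ratio of 0.487. TPM is transcript abundance per gene length and per library, so levels of different genes can be set side by side. The log2 change was -1.04 ± 0.11 (SE) with limma's adjusted p = 0.00651. Log2 changes here are shSASH1 minus shControl on the log2(TPM + 1) scale, which understates the change of low genes. HSPA8 has processed pseudogenes that could take some of its reads.

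Across the family the changes ran in both directions. Tested were the 57 of 69 genes whose mean over the 4 libraries reached 1 TPM. In shSASH1 8 rose and 9 fell at an adjusted p under 0.05, and 40 did not pass. Among all 14458 genes tested, 32% passed, 18.8% higher and 13.3% lower, so the 17 calls are close to the share in the whole transcriptome. Of all genes called, 58.6% were higher, but 48.4% after quantile normalization and 47.5% with voom on rebuilt reads. The median log2 change was -0.01 over the 57 genes and 0.06 over all tested genes. The groups did not overlap for 42 of the 57 genes, 20 higher and 22 lower, against 73.6% of all tested genes (41.3% higher and 32.3% lower). Of the 57 tested members, 7 were called with a log2 change of 1 or more in size, against 8.91% of all tested genes. Without shControl replicate 1 or without shControl replicate 2 no member and no other gene passed; the spread within groups then comes from the shSASH1 pair alone. Without shSASH1 replicate 1 or replicate 2 the spread within groups comes from the shControl pair alone, so calls there carry no shSASH1 scatter.

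**Figure D1:**
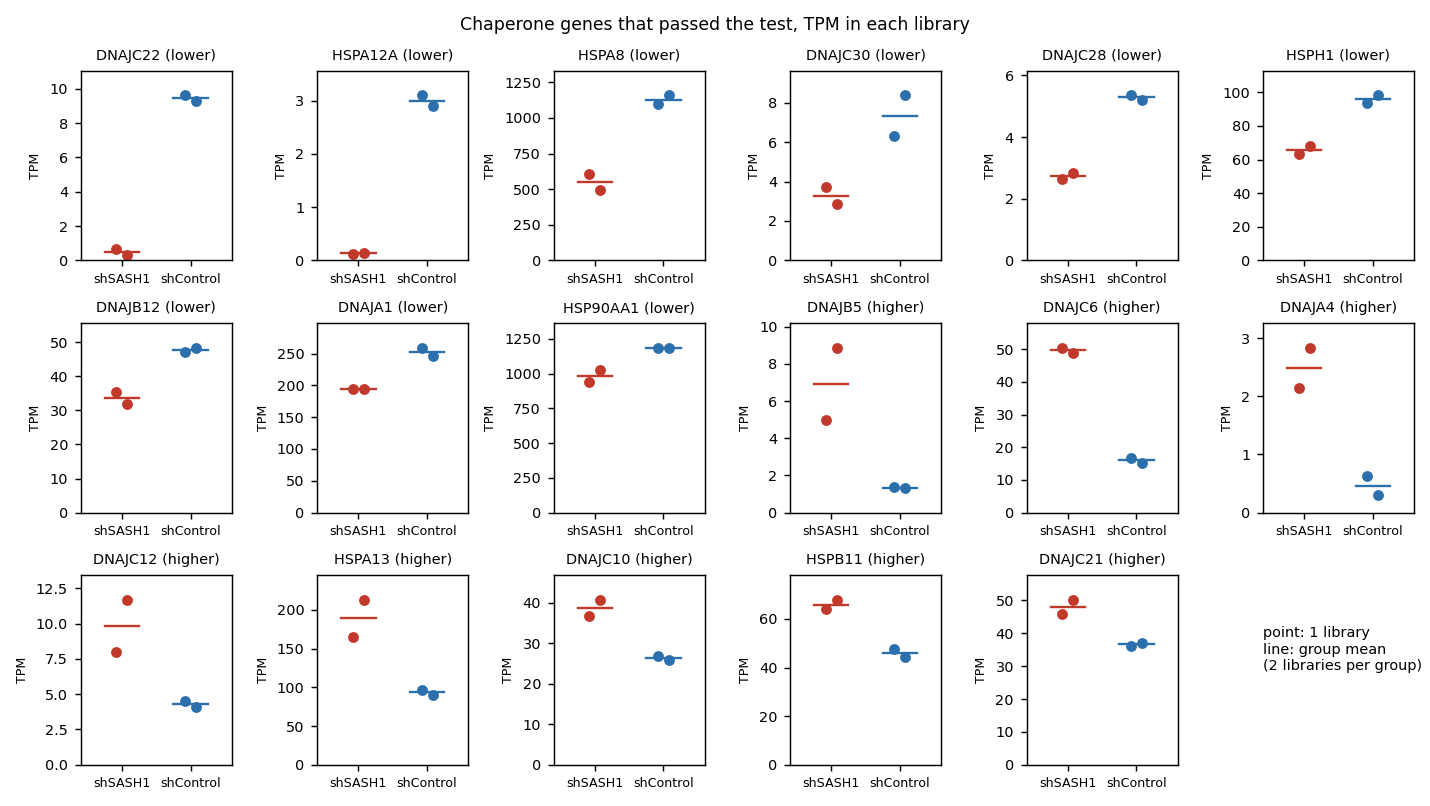
TPM of the 17 genes that passed the test, 9 lower and 8 higher in shSASH1, with 1 point per library, a line at the group mean and the y axis starting at 0 in each panel. For every gene shown, both shSASH1 libraries (left, red) lie on the same side of both shControl libraries (right, blue).

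HSPA8 made up most of the difference in the summed abundance of the family. The 69 genes summed to 8055 and 8130 TPM in the shSASH1 libraries, against 8776 and 8937 TPM in the shControl libraries. This was 0.874% and 0.893% of all TPM in shSASH1 and 0.949% and 0.964% in shControl. Without HSPA8 the sums were 7450 and 7636 TPM in shSASH1 and 7676 and 7779 TPM in shControl, a ratio of group means of 0.976 instead of 0.914. HSPA8 made up 38.7% and 31.3% of the summed HSP70 and HSP110 TPM in shSASH1, against 53.7% and 55.2% in shControl. In bulk RNA, fewer cells that express a gene and less of its RNA per cell cannot be told apart.

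**Figure D2:**
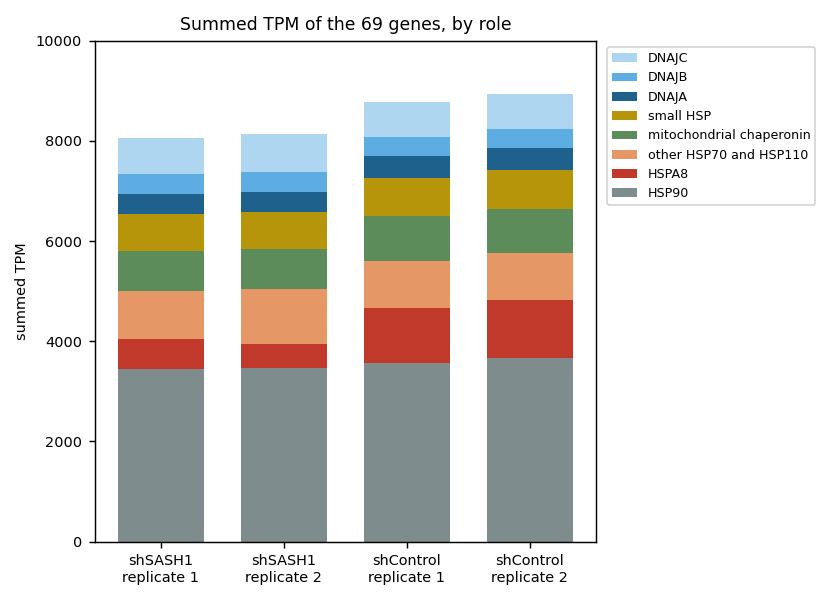
Summed TPM of the 69 genes in each library, stacked by role with HSPA8 drawn apart from the other HSP70 and HSP110 genes. The bars reach 8055 and 8130 TPM in shSASH1 and 8776 and 8937 TPM in shControl, and the HSPA8 segment is the one that differs most.

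Of the cytosolic HSP90 pair, the inducible isoform was lower and the constitutive one was not called. HSP90AB1, the constitutive isoform and the most abundant member, was at 2506 and 2435 TPM in shSASH1 and at 2373 and 2481 TPM in shControl. Its groups overlapped, with a log2 change of 0.03 and a 95% interval of -0.16 to 0.21. After quantile normalization HSP90AB1 passed as higher (0.32, adjusted p = 0.0499). HSP90AA1, the stress-inducible isoform, was at 941 and 1026 TPM in shSASH1, against 1187 and 1181 TPM in shControl. It fell to 983 ± 60.6 TPM in shSASH1, against 1184 ± 4.19 TPM in shControl (SD, n = 2 each), by 0.27 on the log2 scale (limma adjusted p = 0.0480). That call was lost after quantile normalization (adjusted p = 0.0744), without a filter on low values (0.111), without a variance trend (0.0968), with a replicate block (0.115) and with genes centred on their chromosomal window (0.0594).

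The HSP70 and HSP110 genes held changes of both signs. Of 13 members 11 were tested, 1 rose and 3 fell, with a median log2 change of 0.05. That is 36.36% called, near the 32% of all tested genes (18.8% higher and 13.3% lower). HSPH1 (chromosome 13, 31134974 to 31162388), the HSP110 that serves HSP70 as a nucleotide exchange factor, was at 63.1 and 68.1 TPM in shSASH1, against 93.6 and 98.2 TPM in shControl. It fell by 0.54 on the log2 scale (SE 0.07, limma adjusted p = 0.00904). HSPA12A, a distant HSP70 relative, was nearly lost, at 0.116 and 0.145 TPM in shSASH1, against 3.10 and 2.90 TPM in shControl. Its shSASH1 level rests on about 9 reads in each library, read numbers that were rebuilt from the TPM values. HSPA12A fell by 1.82 (limma adjusted p = 0.00713). HSPA13 (chromosome 21, 14371115 to 14383484), a microsome-associated HSP70 also called STCH, went the other way. It was at 165 and 213 TPM in shSASH1, against 96.1 and 90.5 TPM in shControl, a ratio of means of 2.02 (log2 change 0.999 ± 0.14, limma adjusted p = 0.0102).

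The heat-inducible HSP70 genes were not called. HSPA1A was at 148 and 179 TPM in shSASH1 and at 163 and 169 TPM in shControl, and its groups overlapped (log2 change -0.03, 95% interval -0.31 to 0.25). HSPA1B was at 118 and 130 TPM in shSASH1, against 110 and 109 TPM in shControl (log2 change 0.17, 95% interval -0.02 to 0.36, limma adjusted p = 0.131). HSPA1B passed as higher after a length and GC correction (adjusted p = 0.0495) and without shSASH1 replicate 1 (0.0146). HSPA1A and HSPA1B encode nearly the same protein and share reads, so their single values are uncertain, and 36.5% of the exon bases of HSPA1B also lie in another annotated gene. HSPA6, which human cells switch on only under strong stress, was at 0.453 and 0.405 TPM in shSASH1 and 0.0724 and 0.124 TPM in shControl. Those values rest on 7 and 5 rebuilt reads in shSASH1 and 1 and 2 in shControl, below the level tested. Without a filter on low values HSPA6 passed as higher and HSPB6, a small HSP, as lower.

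The other abundant HSP70 genes were not called either. Mitochondrial HSPA9, called mortalin, was at 270 and 282 TPM in shSASH1 and 270 and 262 TPM in shControl (95% interval of the log2 change -0.10 to 0.20). HSPA4, a cytosolic HSP110-type exchange factor, was at 177 and 184 TPM in shSASH1 and 196 and 194 TPM in shControl (-0.26 to 0.03). In neither gene does the interval reach the size of the HSPA8 change. HSPA1L, transcribed mainly in testis, was at 3.03 and 10.4 TPM in shSASH1 and 3.02 and 3.06 TPM in shControl, so that only shSASH1 replicate 2 stood apart. HSPA2, a germ cell HSP70, was at 10.05 and 13.0 TPM in shSASH1 and 8.88 and 7.56 TPM in shControl and did not pass (limma adjusted p = 0.112).

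**Figure D3:**
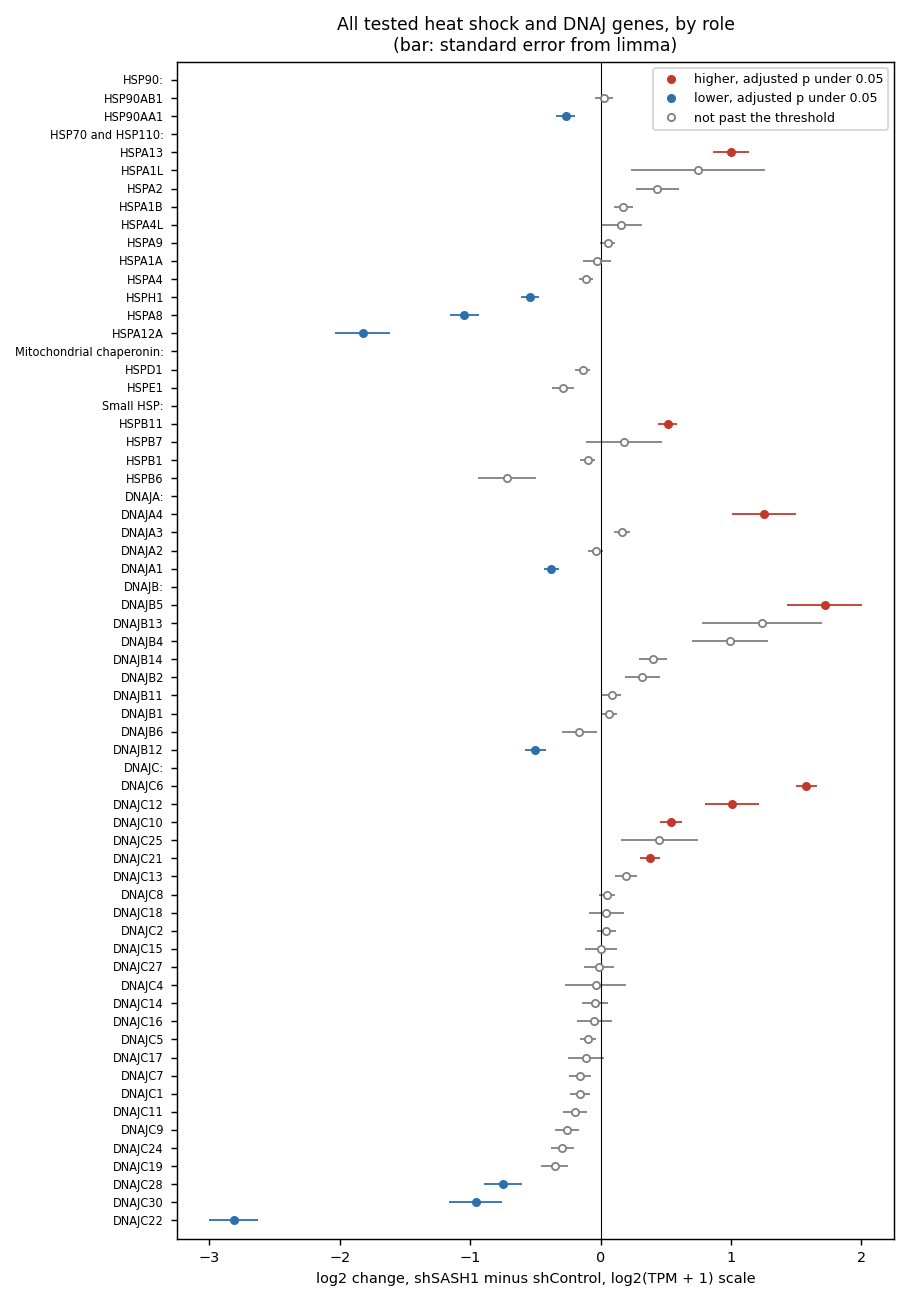
Log2 change of each of the 57 tested genes with its standard error from limma, grouped by role and sorted within it. Filled points passed the adjusted p of 0.05 (8 higher in red, 9 lower in blue) and open points did not; DNAJC22 lies at -2.81 and DNAJB5 at 1.72, the ends of the range.

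The mitochondrial chaperonin genes and the major small HSP were not called. HSPD1, or HSP60, was at 767 and 787 TPM in shSASH1 and 860 and 851 TPM in shControl, and its partner HSPE1, or HSP10, at 20.8 and 21.8 TPM in shSASH1 and 25.3 and 27.1 TPM in shControl. Both genes lay lower in both shSASH1 libraries, with log2 changes of -0.14 (limma adjusted p = 0.127) and -0.29 (adjusted p = 0.0591). Of the exon bases of HSPE1, 14.2% overlap HSPD1 on the opposite strand and 9.71% a readthrough gene on the same strand, and use of strand in the counting is not given in the sources used here. How those reads were assigned is therefore unknown. Centred on their window, whose 45 tested genes had a median log2 change of 0.24, HSPD1 (-0.32, adjusted p = 0.0448) and HSPE1 (-0.47, adjusted p = 0.0265) passed as lower. HSPE1 also passed as lower after median-of-ratios scaling (0.0394), quantile normalization (0.0317), a filter at 5 TPM (0.0490) and without shSASH1 replicate 2 (0.0481). HSPD1 did so with voom (0.0333) and without shSASH1 replicate 1 (0.0484) or replicate 2 (0.0361).

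HSPB1, or HSP27, which holds unfolding proteins and is abundant in epithelial tumour cells, was at 683 and 658 TPM in shSASH1 and 708 and 728 TPM in shControl (log2 change -0.10, 95% interval -0.25 to 0.05). Of the 9 HSPB rows, 4 were tested and 1 passed, or 25%, against 32% of all tested genes. This was HSPB11, now named IFT25, a subunit of the intraflagellar transport complex rather than a typical small HSP. It was at 63.9 and 67.9 TPM in shSASH1, against 47.5 and 44.3 TPM in shControl (log2 change 0.51, limma adjusted p = 0.0111), and did not pass when centred on its window (0.15, adjusted p = 0.180). HSPB7, a small HSP of heart and muscle, was at 1.13 and 2.15 TPM in shSASH1 and 1.05 and 1.56 TPM in shControl, and its groups overlapped. HSPB6 was at 0.530 and 0.554 TPM in shSASH1 and 1.38 and 1.69 TPM in shControl, or 5 to 20 rebuilt reads, and did not pass (adjusted p = 0.0713).

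Among the class A J-domain proteins, the general partners of cytosolic HSP70, DNAJA1 fell and DNAJA4 rose. DNAJA1, or HDJ2, was at 194 and 195 TPM in shSASH1, against 259 and 246 TPM in shControl. It fell by 0.38 (SE 0.06, limma adjusted p = 0.0124). DNAJA4 was at 2.15 and 2.84 TPM in shSASH1, against 0.621 and 0.309 TPM in shControl (log2 change 1.26 ± 0.25, adjusted p = 0.0237), the control level resting on 24 and 14 rebuilt reads. DNAJA2, which lifts refolding by HSP70, was at 140 and 146 TPM in shSASH1 and 146 and 147 TPM in shControl (95% interval of the log2 change -0.19 to 0.11). Mitochondrial DNAJA3, or TID1, was at 55.6 and 56.1 TPM in shSASH1 and 49.0 and 50.6 TPM in shControl, without overlap, and did not pass (adjusted p = 0.110).

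Of 11 class B genes 9 were tested, with DNAJB12 lower and DNAJB5 higher. That is 22.22% called, against 32% of all tested genes. DNAJB1, or HSP40, the stress-inducible partner of HSP70, was at 220 and 217 TPM in shSASH1 and 203 and 214 TPM in shControl (log2 change 0.07, 95% interval -0.08 to 0.22). DNAJB6, a suppressor of polyglutamine aggregation, was at 27.8 and 21.7 TPM in shSASH1 and 27.4 and 27.8 TPM in shControl and its groups overlapped. DNAJB2, a neuronal J-domain protein with ubiquitin-binding motifs, was at 54.1 and 41.9 TPM in shSASH1 and 38.1 and 37.8 TPM in shControl and did not pass (adjusted p = 0.135). DNAJB12, anchored in the endoplasmic reticulum membrane where it helps degrade misfolded membrane proteins, was at 35.4 and 31.8 TPM in shSASH1, against 47.3 and 48.5 TPM in shControl (log2 change -0.50, limma adjusted p = 0.0154). Its paralog DNAJB14 was at 15.9 and 18.3 TPM in shSASH1, against 12.9 and 12.4 TPM in shControl, and narrowly missed the threshold in the other direction (log2 change 0.40, adjusted p = 0.0524). DNAJB5 was at 4.97 and 8.88 TPM in shSASH1, against 1.36 and 1.31 TPM in shControl (log2 change 1.72, adjusted p = 0.0161). DNAJB4 was at 18.9 and 34.4 TPM in shSASH1 and 12.3 TPM in each shControl library, and missed the threshold (log2 change 0.99, adjusted p = 0.0609) with a wide gap between the shSASH1 libraries.

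The class C genes, which share the J domain and little else, held the widest range. Of 28 rows 25 were tested, 4 rose and 3 fell, with a median log2 change of -0.04. That is 28% called, near the 32% of all tested genes (18.8% higher and 13.3% lower). The 18 that did not pass ranged between -0.35 for DNAJC19 and 0.45 for DNAJC25. DNAJC6 (chromosome 1, 65248219 to 65415869), or auxilin, which recruits HSPA8 to strip clathrin from coated vesicles, was at 50.5 and 48.9 TPM in shSASH1, against 16.8 and 15.3 TPM in shControl. It rose by 1.58 ± 0.08 on the log2 scale (SE, limma adjusted p = 0.00216), a ratio of means of 3.10, and by 1.09 when centred on its window (adjusted p = 0.00866). HSPA8 was lower and DNAJC6 higher in shSASH1, and a link between these changes was not tested. DNAJC5, the cysteine string protein of secretory vesicles, was at 127 and 119 TPM in shSASH1 and 130 and 133 TPM in shControl (log2 change -0.10, 95% interval -0.26 to 0.06). DNAJC13, or RME-8, an endosomal J-domain protein, was at 39.7 and 44.5 TPM in shSASH1 and 37.3 and 36.0 TPM in shControl and did not pass (adjusted p = 0.146). GAK, the ubiquitous relative of auxilin, which lies outside the naming rule, was at 35.6 and 39.0 TPM in shSASH1, against 30.2 and 30.1 TPM in shControl (log2 change 0.30, adjusted p = 0.0496), a call that was lost under 6 settings with adjusted p between 0.0555 and 0.108.

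DNAJC22 (chromosome 12, 49346917 to 49357546), a membrane J-domain protein known in Drosophila as wurst for its part in clathrin-mediated endocytosis, fell most on the log2(TPM + 1) scale. By the ratio of mean TPM HSPA12A fell further (0.0435, against 0.0522 for DNAJC22), and by the difference in TPM HSPA8 did. DNAJC22 was at 0.652 and 0.334 TPM in shSASH1, against 9.61 and 9.26 TPM in shControl, a log2 change of -2.81 ± 0.19 (limma adjusted p = 0.00301). The shSASH1 values rest on 22 and 9 rebuilt reads and the shControl values on 288 and 325. DNAJC12, a cochaperone of the aromatic amino acid hydroxylases, was at 7.98 and 11.7 TPM in shSASH1, against 4.54 and 4.09 TPM in shControl (log2 change 1.008, adjusted p = 0.0266). The adjusted p of DNAJC12 was 0.0553 without a filter on low values.

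In the endoplasmic reticulum, DNAJC10, or ERdj5, a reductase that feeds misfolded proteins to degradation, rose. It was at 36.8 and 40.7 TPM in shSASH1, against 26.8 and 25.8 TPM in shControl (log2 change 0.54, limma adjusted p = 0.0136). DNAJC1 was at 47.1 and 48.2 TPM in shSASH1 and 50.7 and 56.0 TPM in shControl and did not pass (adjusted p = 0.174). DNAJB11, or ERdj3, a soluble partner of BiP, was at 29.03 and 29.5 TPM in shSASH1 and 28.3 and 26.8 TPM in shControl and did not pass either (adjusted p = 0.418). Of the 8 J-domain genes of this compartment that were listed, 1 rose and 1 fell, or 25% called, against 32% of all tested genes.

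The 10 mitochondrial members held no gene that rose and 2 that fell, with a median log2 change of -0.17. Their share of calls was 20%, against 32% of all tested genes (18.8% of all tested genes higher and 13.3% lower). DNAJC30, which is tied to complex I repair, was at 3.74 and 2.84 TPM in shSASH1, against 6.31 and 8.38 TPM in shControl (log2 change -0.96, limma adjusted p = 0.0285). Of its exon bases 14.4% overlap BUD23 on the other strand, and the call was lost without a filter (adjusted p = 0.0602) and without shSASH1 replicate 2 (0.0613). DNAJC28 was at 2.64 and 2.84 TPM in shSASH1, against 5.35 and 5.22 TPM in shControl (log2 change -0.75, adjusted p = 0.0232), with adjusted p = 0.0537 without a filter and 0.0527 with a replicate block. DNAJC19, a component linked to the inner membrane import motor, was at 17.9 and 15.5 TPM in shSASH1 and 21.2 and 22.1 TPM in shControl and did not pass (adjusted p = 0.0626).

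Of 5 J-domain genes that act in the nucleus or on ribosomes, 1 rose (20% called, against 32% of all tested genes, 18.8% higher). This was DNAJC21, a factor of ribosome maturation, at 45.8 and 50.2 TPM in shSASH1, against 36.2 and 37.1 TPM in shControl (log2 change 0.38, limma adjusted p = 0.0256). Its window on chromosome 5 had a median log2 change of 0.50 over 39 genes, and centred on it DNAJC21 was at -0.12 (adjusted p = 0.258). The adjusted p was 0.0522 after a length and GC correction and 0.0523 without a variance trend. DNAJC8, a splicing-associated protein, was at 95.5 and 90.8 TPM in shSASH1 and 91.2 and 88.9 TPM in shControl. DNAJC24, which acts in diphthamide synthesis, was at 16.3 and 17.6 TPM in shSASH1 and 21.01 and 20.95 TPM in shControl and did not pass (adjusted p = 0.0627). DNAJC24 did pass as lower after median-of-ratios scaling (0.0344), quantile normalization (0.0282), a length and GC correction (0.0286) and voom (0.0181), and without either shSASH1 library (0.0496 and 0.0317).

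Of the 13 members with over 100 TPM in shControl, 3 passed, namely HSPA8, HSP90AA1 and DNAJA1, all lower. Of all tested genes 13.3% were called lower and 18.8% higher, or 32% in either direction. The 5 most abundant members, HSP90AB1, HSP90AA1, HSPA8, HSPD1 and HSPB1, held 71.3% of the family's TPM in shControl. The interval of the log2 change lay within 0.5 of 0 on either side for 24 of the 40 genes that did not pass. The other 16 intervals reached past 0.5 on at least 1 side. The 12 untested genes included HSPA6, HSPA12B, HSPB3, HSPB8, HSPB9, DNAJB7, DNAJB8, DNAJC5B and DNAJC5G, and no library of theirs exceeded 1.58 TPM. The other 3 were listed at 0 in all 4 libraries, HSPB2 and the readthrough genes HSPB2-C11orf52 and DNAJC25-GNG10.

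The shSASH1 libraries differed from each other in several members. Replicate 2 was above replicate 1 in 39 of the 57 genes, against 57.4% of all tested genes. It was over 1.5-fold higher in 7 of them, against 10.3% of all tested genes, and over 1.5-fold lower in 1, DNAJC22. The shControl libraries differed by over 1.5-fold in 1 gene, DNAJA4. DNAJB13, a gene of motile cilia, was at 1.49 and 4.95 TPM in shSASH1 and at 0.589 and 0.671 TPM in shControl (limma adjusted p = 0.104). DNAJC25 was at 22.4 and 40.4 TPM in shSASH1 and 23.8 and 19.9 TPM in shControl, and DNAJC4 at 24.9 and 40.2 TPM in shSASH1 and 32.0 and 33.0 TPM in shControl. In both genes the groups overlapped and only shSASH1 replicate 2 lay above the rest.

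Some members lie in chromosome segments whose genes differed on balance, measured as the median log2 change of all tested genes in windows of 20 Mb. DNAJA1 and DNAJB5 share a window on chromosome 9 with 97 tested genes and a median of 1.10. DNAJB5 rose with it, and centred on the window its log2 change was 0.67 and no longer passed (limma adjusted p = 0.109). DNAJA1 fell while its neighbours were higher on balance, and centred it stood at -1.43 (adjusted p = 0.00473). Centring left 4 of 56 members higher and 10 lower, against 12.8% higher and 11.6% lower of the 14354 genes that could be centred. HSPA13 lies in a window with too few genes to be centred. HSPA8 (-0.997, adjusted p = 0.0252), HSPH1 (-0.66, adjusted p = 0.00989) and DNAJC22 (-2.75, adjusted p = 0.00471) kept their calls.

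**Figure D4:**
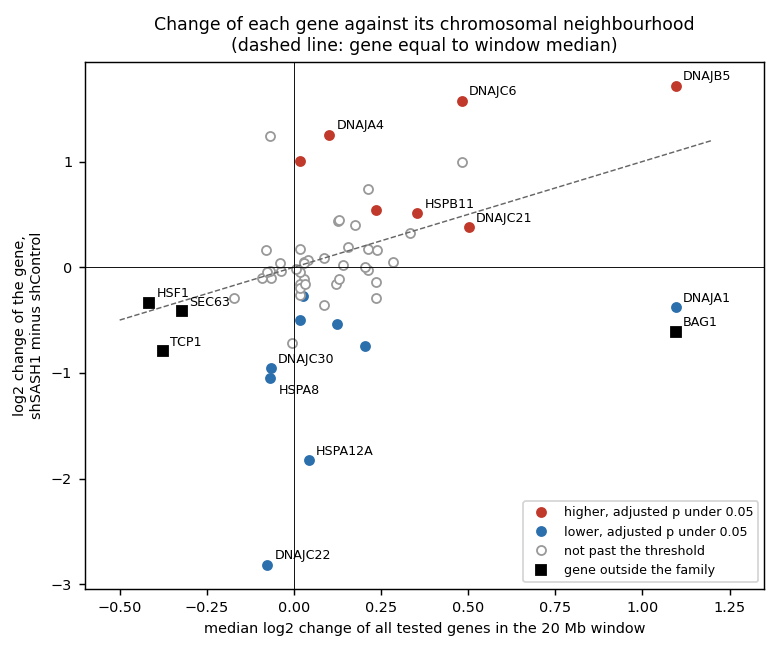
Log2 change of each tested member, shSASH1 minus shControl, against the median log2 change of all tested genes in its 20 Mb window, with 4 genes outside the family as black squares. DNAJA1 and BAG1 lie below 0 in a window with a median of 1.10, while DNAJB5 in the same window lies at 1.72.

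Outside the family, 54 genes from lists of heat shock factors, cochaperones and other chaperones were set beside it. Of these 51 were tested, 8 rose and 12 fell, or 39.22% called, against 32% of all tested genes (18.8% higher and 13.3% lower). Their median log2 change was -0.01. HSF1, the master regulator of heat shock genes, was at 49.0 and 48.8 TPM in shSASH1, against 62.7 and 61.2 TPM in shControl (log2 change -0.33, limma adjusted p = 0.0192). Its window had a median of -0.42, and centred on it HSF1 was at 0.07 (adjusted p = 0.438). HSBP1, a small protein that binds HSF1, was also lower (-0.24, adjusted p = 0.0407), and HSF2 was not called, at 39.6 and 50.1 TPM in shSASH1 and 43.0 and 43.3 TPM in shControl. Of 17 tested genes on a textbook list of heat-inducible HSF1 targets, 0 rose and 4 fell, all of them members already described (HSPA8, HSPH1, DNAJA1 and HSP90AA1), with a median of -0.14. Of the 17, 23.53% were called, all lower, against 13.3% lower and 18.8% higher of all tested genes (32% in either direction). BAG3, a strongly heat-inducible partner of HSPB8, was at 88.9 and 87.0 TPM in shSASH1 and 85.0 and 86.3 TPM in shControl and was not called (adjusted p = 0.632).

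Among 11 exchange factors and cofactors of HSP70, 4 fell and 1 rose. That is 45.45% called, against 32% of all tested genes (18.8% higher and 13.3% lower). BAG1 was at 55.4 TPM in each shSASH1 library, against 83.6 and 86.7 TPM in shControl (log2 change -0.61, limma adjusted p = 0.00524), although it lies in the same window as DNAJA1. HSPBP1, an exchange factor that also restrains HSP70, was at 83.9 and 72.3 TPM in shSASH1, against 122 and 131 TPM in shControl (-0.70, adjusted p = 0.0101). BAG2 (-0.46) and ST13, or HIP, which stabilises the ADP-bound state of HSP70 (-0.30), fell as well, and BAG6 rose (0.23, adjusted p = 0.0342). Of 13 tested HSP90 cochaperones 1 rose and 1 fell, or 15.38% called, under the 32% of all tested genes. CDC37, which loads kinases onto HSP90, was at 868 and 825 TPM in shSASH1, against 580 and 593 TPM in shControl (0.53, adjusted p = 0.00696), and PTGES3, or p23, was lower (-0.21, adjusted p = 0.0440).

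In the TRiC chaperonin, which folds actin and tubulin, 4 of 8 subunits fell and 1 rose, with a median log2 change of -0.21. That is 62.5% called, against 32% of all tested genes (18.8% higher and 13.3% lower). TCP1 was at 217 and 233 TPM in shSASH1, against 391 TPM in each shControl library (-0.80, limma adjusted p = 0.00340). Its window had a median of -0.38, and centred on it TCP1 was at -0.43 and still passed (adjusted p = 0.0185). CCT6A (-0.48), CCT2 (-0.37) and CCT7 (-0.23) fell and CCT8 rose (0.32). Prefoldin, which hands clients to TRiC, had 2 of 6 genes higher, PFDN2 (0.86) and PFDN6 (0.33), and 0 lower. Its 33.33% called is close to the 32% of all tested genes. PFDN2 was at 581 and 584 TPM in shSASH1, against 324 and 315 TPM in shControl (adjusted p = 0.00269). CRYAB, the small HSP alphaB-crystallin whose symbol falls outside the naming rule, was at 35.3 and 21.5 TPM in shSASH1, against 7.99 and 8.27 TPM in shControl (1.65, adjusted p = 0.0122). SERPINH1, or HSP47, the collagen chaperone, rose (0.73, adjusted p = 0.00451) and the translocon J-domain protein SEC63 fell (-0.41, adjusted p = 0.00941). Centred on their windows, SEC63 (adjusted p = 0.267), HSBP1 (0.202), PTGES3 (0.137), BAG6 (0.904), CCT8 (0.566), CCT2 (0.0749), CCT7 (0.0756) and PFDN6 (0.317) no longer passed. With all 4 libraries kept and this setting included, BAG6 lost its call under 6 settings, with adjusted p between 0.0532 and 0.904. CCT2, CCT7, PTGES3 and PFDN6 lost theirs under 4 settings each, HSBP1 under 3 and CCT8 under 2. The calls of BAG2 and CCT6A were lost without a filter on low values (adjusted p = 0.0576 and 0.0626), that of ST13 with a replicate block (0.0527) and that of HSF1 after a length and GC correction (0.0640).

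**Figure D5:**
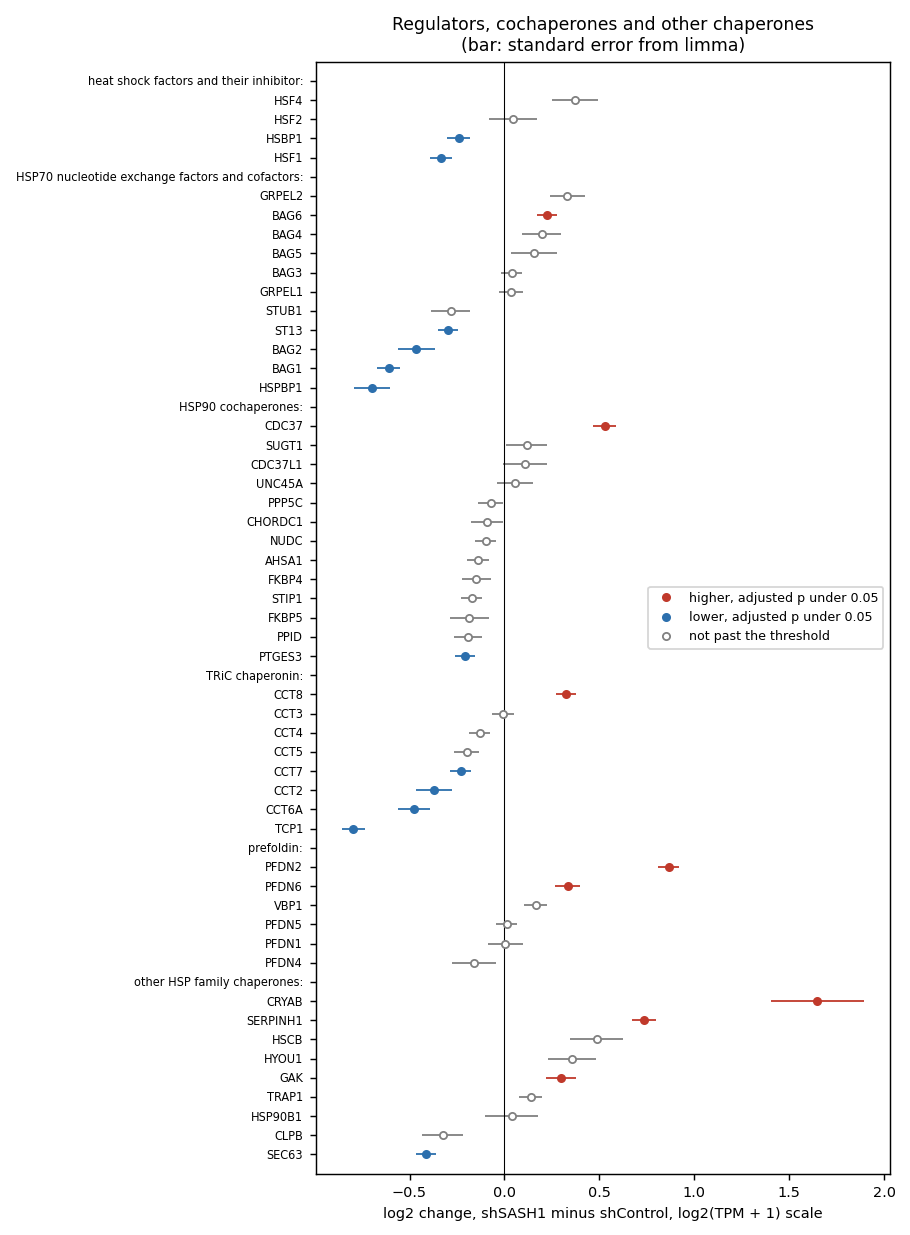
Log2 change, shSASH1 minus shControl, of the 51 tested genes from the lists of regulators, cochaperones and other chaperones, with the standard error from limma. Filled points passed the adjusted p of 0.05; CRYAB lies highest at 1.65 and TCP1 lowest at -0.80.

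The hairpin's target checked the labels. SASH1 was at 3.65 and 4.01 TPM in shSASH1, against 15.0 and 13.0 TPM in shControl (log2 change -1.63, limma adjusted p = 0.00391). The 6 epithelial markers EPCAM, KRT8, KRT18, KRT19, CDH1 and EGFR lay between 48.2 and 2548 TPM in all 4 libraries, and some differed between the groups. EGFR averaged 2197 TPM in shSASH1 and 1122 TPM in shControl and was called higher (log2 change 0.97, adjusted p = 0.00340). CDH1 averaged 57.3 TPM in shSASH1 and 78.7 TPM in shControl and did not pass (adjusted p = 0.0913), nor did KRT19, at 1884 TPM in shSASH1 and 2464 TPM in shControl (0.0533). The luminal receptor genes ERBB2, ESR1 and PGR, markers lacking in triple-negative cells, were examined beside them. ERBB2 averaged 33.6 TPM in shSASH1 and 69.4 TPM in shControl and was called lower (-1.04, adjusted p = 0.0106). ESR1 averaged 3.22 TPM in shSASH1 and 2.44 TPM in shControl and did not pass (0.297), and PGR reached at most 0.0248 TPM. The 10 fibroblast, leukocyte and endothelial markers reached at most 10.9 TPM, a value of COL1A1. Their part in the chaperone results was not tested.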

How the data were processed

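RNA was isolated with TRIzol and sequenced after NEBNext Ultra library preparation, per the labels' protocols. The authors deposited 1 TPM value per Ensembl gene and library. The rows used here summed to 922024 and 910830 TPM in shSASH1 and 924683 and 926711 TPM in shControl. TPM is a share of a library, so it shows relative abundance. The submitters' processing notes name STAR, DESeq2 and hg38 without versions or roles. Neither the read counter nor the annotation nor any strand setting is given in the sources used here, and overlapping genes may therefore share reads.

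Symbols and 1-based coordinates come from GENCODE release 29 (hg38), which holds all 26518 IDs. Depth is not part of TPM; approximate read numbers were recovered by multiplying it by exon length, with 1 scale per library. They came to 24361007 and 19534437 in shSASH1 and 20782793 and 24189721 in shControl. Of values up to 20 reads, 88.9% to 89.4% fell within 0.05 of a whole number, so these are estimates.

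The main test was limma 3.58.1 (R 4.3.3) with a variance trend and no replicate block, on log2-transformed TPM with a pseudocount of 1, for the 14458 genes whose mean reached 1 TPM. It was two-sided, with Benjamini-Hochberg adjustment over these genes and a threshold of 0.05. With 2 libraries per group the smallest p of an exact permutation test is 0.333. The procedure was tested on simulated data. Promoters are from RefSeq (GRCh38.p14), which matched 62 of the 69 genes. Python 3.11.15, pandas 2.3.3 and matplotlib 3.10.9 were used.

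The members and lists were chosen with earlier results of these data known. Named by rule were the called members, 15 major chaperones, the 3 most abundant genes per role, up to 4 called genes per outside list, HSF1, HSF2, BAG3 and SASH1. HSPA1L, HSPA2, HSPA6, HSPB6, DNAJB4, DNAJB11, DNAJB13, DNAJB14, DNAJC4, DNAJC13, DNAJC19, DNAJC24, DNAJC25, CCT7 and BAG6 were named after their values were seen. Alternatives were another pseudocount, other filters, other scalings, voom on rebuilt reads, no variance trend, centring on 20 Mb windows, a replicate block, each library left out, and a fold limit.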

Additional observations from a re-analysis of the deposited data

How the results depend on the processing

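HSPA8, HSPH1, HSPA12A, DNAJA1, DNAJA4, DNAJB12, DNAJC6, DNAJC10 and DNAJC22 kept their direction and call under each alternative with a per-gene fit, except without 1 or the other shControl library, when no gene passed. The filter at 5 TPM left HSPA12A, DNAJA4 and DNAJC22 untested, and these 3 rest on few reads in 1 group. Of all genes called, 58.6% were higher (2712 against 1918 lower), but 48.4% after quantile normalization (2280 against 2434) and 47.5% with voom (2537 against 2809), so the split between higher and lower depends on the scaling. Equally numbered libraries did not deviate together over the tested genes as a whole (correlation -0.03). Whether the numbers mark a shared batch is not known from this value. With a replicate block 9 members were higher and 7 lower, and 7 genes of the other lists were lower.

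Members that did not pass also gained calls. Those gained without an shSASH1 library rest on the spread of the shControl pair alone. DNAJB14 passed as higher with a filter at 5 TPM (adjusted p = 0.0438) and with voom (0.0358). Its log2 change was 0.50 without shSASH1 replicate 1. After the length and GC correction DNAJB14 was at 0.23 (adjusted p = 0.159) and centred on its window at 0.17 (0.230), and did not pass. DNAJB4 passed as higher with a filter at 5 TPM (0.0495) and with a replicate block (0.0310). Its log2 change was 1.41 without shSASH1 replicate 1 and 0.57 without shSASH1 replicate 2. Centred on its window DNAJB4 was at 0.51 and did not pass (adjusted p = 0.174). DNAJC19 passed as lower after the length and GC correction (0.0444), with voom (0.0358) and without shSASH1 replicate 1 (0.0179). DNAJC4 passed as higher without shSASH1 replicate 1 (0.0223) and as lower without shSASH1 replicate 2 (0.0217).

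Centring on windows left 4 members higher. With a log2 change of at least 1 as well, 4 members were higher and 3 lower, and 1 gene of the other lists was higher and 0 lower. On those lists median-of-ratios scaling left 5 higher, no variance trend 4 higher and 7 lower, and no filter 7 lower. Leaving out each library in turn gave 0 to 17 members higher and 0 to 16 lower, and 0 to 14 genes of the other lists higher and 0 to 18 lower. SASH1 was at -1.54 without shControl replicate 1 (adjusted p = 0.106) and at -1.73 without shControl replicate 2 (0.104).

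Log2 changes that turned sign follow; the cause was not tested. With median-of-ratios scaling BAG3 was at -0.020, DNAJC8 at -0.010, HSF2 at -0.011, HSP90AB1 at -0.033 and HSPA9 at -0.0054. With quantile normalization BAG3 was at -0.070, DNAJC8 at -0.057 and HSF2 at -0.051. With voom BAG3 was at -0.037, DNAJB1 at -0.0071, DNAJC8 at -0.024, HSF2 at -0.040, HSP90AB1 at -0.050 and HSPA9 at -0.022. With the length and GC correction DNAJC4 was at 0.067, HSPA1A at 0.088, HSPA9 at -0.031 and HSPB1 at 0.054. Centred on windows, BAG3 was at -0.027, DNAJC21 at -0.12, DNAJC4 at 0.037, DNAJC8 at -0.25, HSF1 at 0.071, HSP90AB1 at -0.15 and HSPA1B at -0.041. Over the libraries left out the ranges were -0.34 to 0.010 for DNAJB6, -0.37 to 0.30 for DNAJC4, -0.12 to 0.21 for HSF2, -0.0063 to 0.058 for HSP90AB1, -0.16 to 0.11 for HSPA1A, -0.0027 to 1.49 for HSPA1L and -0.11 to 0.46 for HSPB7.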
